A study of Mus musculus with 6 samples.

Results

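The genes followed here belong to the RB and p53 pathways, the pair of tumour suppressor pathways that the large T antigen of the virus SV40 disables. They are Cdkn2a, Cdkn2b, Cdkn1a, Trp53, Rb1, Mdm2, Ccne1, Ccnd1, Cdk4 and Cdk6, 10 of the 31055 features counted in single cells of mammary tissue from C3(1)-Tag mice. The list was drawn up with results of these data known, and Cdkn2a was put on it because it was raised in tumours. Its levels in Tumor libraries are therefore given as a description, with no test. All 10 passed the filter on low counts in every comparison except Ccne1 in macrophage-like cells, but in endothelial-like cells Cdkn2a and Ccne1 passed it only through the Tumor libraries and were given no test.

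Each disease state had 2 libraries, all from female mice that carry the C3(1)-Tag transgene, in which the T antigen is driven by the flanking sequence of the rat C3(1) gene. Prepuberty is whole mammary gland at 5 weeks of age, DCIS is whole gland at 14 weeks that held ductal carcinoma in situ, and Tumor is a palpable tumour taken after 18 weeks. The Prepuberty glands carry the transgene too, and no mouse without it was analysed here. The labels do not say whether the 2 libraries of a state came from different animals, so p-values measure the spread between libraries.

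In a cell with intact pathways, the D-type cyclins with Cdk4 or Cdk6, and cyclin E with Cdk2, phosphorylate RB, which then releases E2F factors that switch on genes for DNA synthesis. The INK4 proteins encoded by Cdkn2a and Cdkn2b block Cdk4 and Cdk6, and p21, the product of Cdkn1a and a target of p53, blocks cyclin-dependent kinases more widely. Cdkn2a encodes a second protein in another reading frame, p19Arf, which restrains Mdm2, the ligase that marks p53 for degradation and is itself a p53 target. Large T antigen binds RB family proteins through an LxCxE motif and binds p53 as well, so that in cells that make it E2F activity no longer depends on RB phosphorylation and p53 no longer activates its targets.

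Cdkn2a (ENSMUSG00000044303) lies on chromosome 4 at 89274471 to 89294653 of GRCm38, on the minus strand, and Cdkn2b (ENSMUSG00000073802) lies beside it at 89306299 to 89311039. Its p16Ink4a and p19Arf transcripts start at separate promoters and end in the same exons, so counts from the 3′ end, as these are, cannot be divided between them. RefSeq promoters of GRCm38.p6, from 250 bases before to 50 bases after each start, were at hand for 8 of the 10 genes. They were searched on both strands for the E2F letters TTTCCCGC, TTTCGCGC, TTTGCCGC and TTTGGCGC and for the p53 consensus of 10 letters. The E2F letters occur in 2.26% of all 32851 promoters and the p53 letters in 8.36%. Both Cdkn2a promoters are shown because Cdkn2a carried the largest differences in level, and those of Cdkn1a and Mdm2 because these genes differed by T-antigen detection. Cdkn1a has a second promoter in the table, which held no match and is not printed. Capitals mark matches to either search.

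Cdkn2a, start nearer Cdkn2a's shared exons (p16Ink4a side), chr4:89282143-89282442, minus strand: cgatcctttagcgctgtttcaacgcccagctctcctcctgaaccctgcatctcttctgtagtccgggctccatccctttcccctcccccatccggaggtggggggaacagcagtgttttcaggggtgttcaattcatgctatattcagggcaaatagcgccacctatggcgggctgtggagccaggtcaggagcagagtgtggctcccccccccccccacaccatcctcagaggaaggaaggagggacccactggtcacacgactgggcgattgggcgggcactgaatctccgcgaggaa
Cdkn2a, start farther upstream (p19Arf side), chr4:89294570-89294869, minus strand: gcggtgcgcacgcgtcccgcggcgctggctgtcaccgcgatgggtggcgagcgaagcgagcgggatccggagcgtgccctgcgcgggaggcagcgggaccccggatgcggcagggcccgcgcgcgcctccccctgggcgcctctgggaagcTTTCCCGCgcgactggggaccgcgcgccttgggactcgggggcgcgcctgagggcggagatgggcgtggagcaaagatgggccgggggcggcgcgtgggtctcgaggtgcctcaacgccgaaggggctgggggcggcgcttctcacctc
Cdkn1a, chr17:29090729-29091028, plus strand: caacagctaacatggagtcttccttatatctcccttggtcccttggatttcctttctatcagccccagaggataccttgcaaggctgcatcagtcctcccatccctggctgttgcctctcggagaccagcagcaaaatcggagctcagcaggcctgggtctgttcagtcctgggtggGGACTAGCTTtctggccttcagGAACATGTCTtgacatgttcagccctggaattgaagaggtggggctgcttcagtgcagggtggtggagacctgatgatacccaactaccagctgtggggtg
Mdm2, chr10:117710709-117711008, minus strand: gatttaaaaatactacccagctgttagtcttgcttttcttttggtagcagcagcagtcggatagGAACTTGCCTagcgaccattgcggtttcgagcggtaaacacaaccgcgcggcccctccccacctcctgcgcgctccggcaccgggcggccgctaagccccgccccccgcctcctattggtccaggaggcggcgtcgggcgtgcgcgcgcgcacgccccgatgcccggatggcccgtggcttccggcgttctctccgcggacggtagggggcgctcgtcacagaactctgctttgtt

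Of the pair at Cdkn2a, the p19Arf side held an E2F match, which begins 99 bases before the start, and the p16Ink4a side held none. The Cdkn1a sequence held 2 p53 matches, which begin 73 and 51 bases before the start, and the Mdm2 sequence held 1, which begins 186 bases before it. Among the other members, the Trp53 promoter held 1 p53 match and the remaining promoters searched held neither. These matches are letters in a window and not evidence of binding.

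After filtering, 21537 cells with 237076023 UMIs were kept, from 2549 to 4305 cells and from 28564804 to 57189896 UMIs per library, with a median of 6568 to 13620 UMIs per cell. Pairs of libraries shared 7 to 32 cell barcodes, at most 0.826% of the smaller library. Cells were clustered and named from marker genes with the ending "-like", and UMIs were summed per class and library, since cells are not replicates. Levels are given as CPM, the UMIs of a gene per 1000000 UMIs of that class in that library, and were compared between samples rather than between genes. The study's methods name another dissociation kit for tumours and a later library kit for Tumor 2, whereas the labels give the same for all, so effects of dissociation cannot be told apart from the Tumor state. Effects of the library kit, if the methods hold, likewise cannot be told apart from differences between Tumor 1 and Tumor 2. Summed CPM of 12 dissociation stress genes in epithelial-like cells were 2576 and 5049 in Prepuberty, 7218 and 8387 in DCIS, and 5261 and 1965 in Tumor.

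Epithelial-like cells numbered 787 and 140 in Prepuberty, 1237 and 936 in DCIS, and 2714 and 1275 in Tumor. The first question was how the members' levels differed between the disease states in these cells. Cdkn2a stood at 2.13 and 0 CPM in Prepuberty 1 and 2, 399.9 and 127 CPM in DCIS 1 and 2, and 1305 and 1719 CPM in Tumor 1 and 2. The 3 states did not overlap, and the 0 in Prepuberty 2 has an exact 95% Poisson interval that reaches 1.63 CPM. It was seen in 2.80% and 0% of Prepuberty cells, 73.9% and 35.6% of DCIS cells, and 97.7% and 92.9% of Tumor cells. In edgeR's quasi-likelihood test (two-sided, Benjamini-Hochberg adjustment over all genes tested, threshold 0.05), DCIS against Prepuberty gave a log2 fold change of 7.48 ± 0.94 (SE, n = 2 against 2 libraries) for Cdkn2a and an adjusted p = 0.226. The same gene had an adjusted p of 5.66e-06 in DESeq2. Its fitted log2 differences were 2.13 for Tumor against DCIS and 9.62 for Tumor against Prepuberty, as a description.

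Its neighbour Cdkn2b, which encodes the INK4 protein p15, stood at 11.7 and 7.52 CPM in Prepuberty, 93.5 and 34.1 CPM in DCIS, and 99.6 and 88.6 CPM in Tumor. Both older states lay above Prepuberty in every library, and DCIS 1 lay within the range of Tumor. Cdkn2b was higher in Tumor than in Prepuberty by 2.97 ± 0.54 on the log2 scale (SE, adjusted p = 0.0318, edgeR), and DCIS against Prepuberty gave 2.76 ± 0.54 (adjusted p = 0.262). Cdkn1a stood at 126 and 259.6 CPM in Prepuberty, 122 and 139.7 CPM in DCIS, and 329 and 199.5 CPM in Tumor. Its states overlapped, and it did not pass in any of the 3 comparisons.

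**Figure D1:**
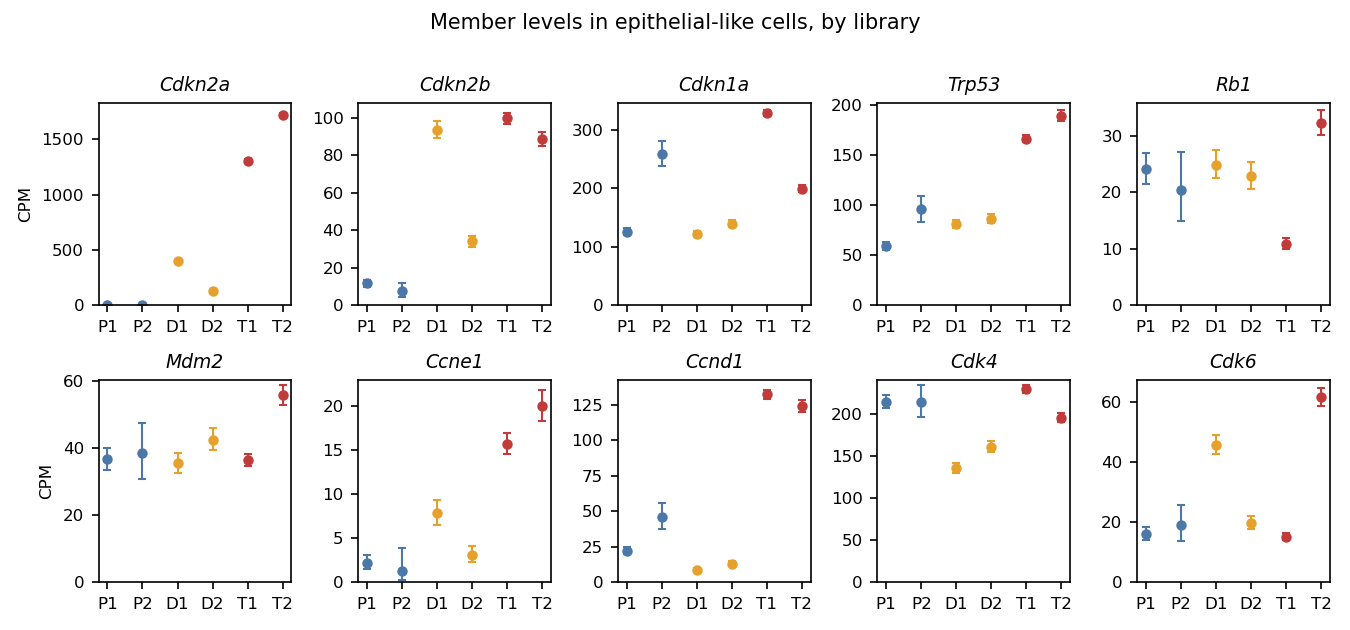
Level of each of the 10 genes in epithelial-like cells (y axis, CPM) in the 6 libraries (x axis, P for Prepuberty, D for DCIS and T for Tumor), with exact 95% Poisson intervals that cover counting error only. Cdkn2a and Cdkn2b are lowest in both Prepuberty libraries, Ccnd1 and Ccne1 are highest in both Tumor libraries, and the y axes differ between panels.

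Among the cyclins, Ccnd1, which encodes cyclin D1, stood at 22.2 and 46.0 CPM in Prepuberty, 8.77 and 13.3 CPM in DCIS, and 132 and 124 CPM in Tumor. DCIS was the lowest state and Tumor the highest, with no overlap. Tumor exceeded DCIS by 3.16 ± 0.43 on the log2 scale (SE, adjusted p = 0.0328, edgeR), and the other differences were −1.46 ± 0.41 for DCIS against Prepuberty (adjusted p = 0.314) and 1.70 ± 0.41 for Tumor against Prepuberty (adjusted p = 0.0533). Ccne1, which encodes cyclin E1, stood at 2.20 and 1.33 CPM in Prepuberty, 7.86 and 3.17 CPM in DCIS, and 15.8 and 20.1 CPM in Tumor. It was ordered Prepuberty, DCIS, Tumor in every library, with 29 and 3 UMIs behind the Prepuberty values. Tumor exceeded Prepuberty by 2.91 ± 0.56 (SE, adjusted p = 0.0351), and DCIS against Prepuberty gave 1.60 ± 0.55 (adjusted p = 0.361).

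The kinases that the D-type cyclins bind did not pass in any comparison. Cdk4 stood at 215 and 215 CPM in Prepuberty, 136 and 161 CPM in DCIS, and 230 and 196 CPM in Tumor, and Cdk6 at 16.1 and 19.0, 45.8 and 19.9, and 15.2 and 61.6 CPM. Cdk6 differed more between the 2 Tumor libraries than between states. Rb1 itself stood at 24.1 and 20.3 CPM in Prepuberty, 24.9 and 22.8 CPM in DCIS, and 10.9 and 32.2 CPM in Tumor, so that Tumor 1 was the lowest library and Tumor 2 the highest. On the p53 side, Trp53 stood at 59.0 and 96.0 CPM in Prepuberty, 81.2 and 86.3 CPM in DCIS, and 166 and 189 CPM in Tumor. Both Tumor libraries were above all others, and no comparison of it passed. Mdm2 lay between 35.3 and 42.4 CPM in 5 of the libraries and at 55.7 CPM in Tumor 2, and did not pass.

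In DCIS against Prepuberty 0 of the 10 genes passed in edgeR, where 0% of 13341 genes passed, 4 had an unadjusted p under 0.05 (12.4% of all genes did), and DESeq2 called 212 genes as higher and 71 as lower, Cdkn2a and Cdkn2b among them. With Cdkn2a left out, 1 of 9 passed in Tumor against DCIS (1.28% of all genes) and 2 of 9 in Tumor against Prepuberty (6.37%). In counts simulated for Tumor against DCIS, the test recovered 75% of genes changed by 3 on the log2 scale and 2% of those changed by 1, so differences near 1 were mostly not detectable with 2 libraries a state. Cdkn2b and Ccne1 against Prepuberty lost their calls without Prepuberty 1 or Prepuberty 2 (adjusted p from 0.123 to 0.146), and Ccnd1 against DCIS without either DCIS or either Prepuberty library (adjusted p from 0.0696 to 0.191). All 3 calls were also lost when clusters were built without integration (adjusted p from 0.0966 to 0.116). That setting left 320 epithelial-like cells in Tumor 2 in place of 1275 and put 1675 Tumor 2 cells in clusters that could not be named. It therefore did not compare the same cells. The cluster with Prlr and Cited1 held 332 and 58 cells in Prepuberty but 15 and 46 in Tumor, so the states differed in makeup. Within each of the 5 epithelial-like clusters, over sums of at least 10 cells, both Tumor libraries stood above DCIS for Ccnd1 and above Prepuberty for Cdkn2b and Ccne1, the lowest of these on 2 UMIs. Without Prepuberty 1, no Cdkn2a UMI remained in Prepuberty and the fitted difference to Tumor was 17.8.

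Genes on either side of RB and p53 were read from lists. Of 22 E2F target genes, which serve DNA replication and division, 11 were higher in Tumor than in Prepuberty (3% of all genes were) and none lower, with a median of 1.71 on the log2 scale against 0.09 over all genes. The count of 11 was 15 with DESeq2, 4 with the replicate number as a block, 2 with only the 4 libraries compared, 1 without DCIS 1 or DCIS 2, and 0 without Prepuberty 1, Prepuberty 2 or integration. Among those with the largest change were Cdc6, which loads the replicative helicase (2.65), and Tk1, thymidine kinase (2.48). In DCIS against Prepuberty none passed, 15 had an unadjusted p under 0.05, all higher (7.5% of all genes were), and the median was 1.48, and Mcm2 and Mcm3 of the replicative helicase had the smallest p (2.15 and 1.97). Summed over the list, epithelial-like cells held 899.5 and 387 CPM in Prepuberty, 1887 and 1404 in DCIS, and 2189 and 3153 in Tumor, so both older states lay above Prepuberty. The class also differed in makeup: the cycling cluster held 121 of 787 and 7 of 140 cells in Prepuberty, 567 of 1237 and 256 of 936 in DCIS, and 921 of 2714 and 520 of 1275 in Tumor, and its part in the E2F result was not tested. Of 22 core genes of the RB pathway, Ccne2, cyclin E2, passed in Tumor against Prepuberty (2.83, adjusted p = 0.0296) and no other did in any comparison, and none passed without any of the Prepuberty or DCIS libraries or without integration.

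Of 20 p53 target genes, 2 were lower in Tumor than in DCIS (0.892% of all genes were), Gadd45a, a stress sensor, by 2.57 and Pmaip1, the proapoptotic Noxa, by 2.48, and the median was −0.62 against 0.09 over all genes. The count of 2 was 5 with DESeq2, 5 or 6 without a Tumor library, and 0 without any of the Prepuberty or DCIS libraries, without integration, with the replicate number as a block or with only the 4 libraries compared. In Tumor against Prepuberty only Trp53inp1, a p53-induced autophagy and death factor, passed (−2.84), where 3.37% of all genes passed as lower, and none passed as lower without Prepuberty 1, Prepuberty 2 or integration. None of the 13 p53 regulators tested passed in any comparison. The one with the smallest p was Mdm4, the partner of Mdm2, at −1.21 for Tumor against DCIS (adjusted p = 0.0712) and −1.15 for Tumor against Prepuberty (adjusted p = 0.0570). Dissociation stress genes fell in the same comparison as the 2 p53 targets, Hspb1 by 3.92 and Hspa1b by 3.18 in Tumor against DCIS, and their part in the p53 result was not tested.

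The level of Cdkn2a in DCIS was uneven over the 5 epithelial-like clusters, which are described without a test because their genes include the members. In DCIS 1 and 2, Cdkn2a was seen in 86.2% and 66.8% of the cells of the cycling cluster (led by Cenpf, Ube2c and Ccnb1), at 555 and 301 CPM. The cluster led by Ankrd1 had 84.3% and 47.7%, at 400.1 and 112 CPM. The clusters with genes of secretory cells (Csn1s1, Ltf) and of hormone-sensing cells (Prlr, Cited1) had 35.5% and 12.8%, and 27.5% and 17.2%, at 111 and 17.4, and 72.6 and 30.3 CPM. Both DCIS libraries thus had the same order of these 4 clusters by CPM except that the last 2 changed places. A smaller cluster led by Pthlh, with 31 and 25 DCIS cells, stood at 458 and 43.2 CPM. In Tumor the shares were 94.5% to 99.3% in the cycling, Ankrd1 and Pthlh clusters. The Prlr and Cited1 cluster, with 15 and 46 cells, had 93.3% and 41.3%, at 1642 and 508 CPM, the widest gap between the Tumor libraries. In Prepuberty no cluster exceeded 3.92%.

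**Figure D2:**
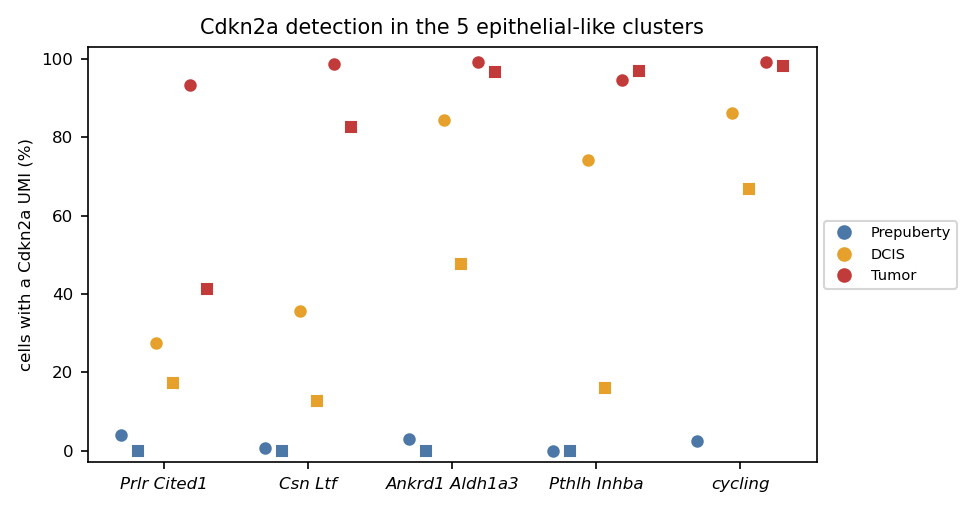
Share of cells with a Cdkn2a UMI (y axis, percent) in the 5 epithelial-like clusters (x axis), with circles for library 1 and squares for library 2 of each disease state. The Prepuberty points lie at the bottom in all clusters (0% to 3.92%), the DCIS points spread from 12.8% to 86.2% and the Tumor points lie at 82.6% or more except for Tumor 2 in the Prlr Cited1 cluster (41.3%).

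In the other named classes, Cdkn2a stood at 18.8 CPM or less in every Prepuberty and DCIS library and at 31.8 CPM or more in each Tumor sum. Myoepithelial-like cells stood at 1.83, 0, 3.85 and 2.68 CPM in Prepuberty 1 and 2 and DCIS 1 and 2, against 1944 CPM in Tumor 1 and 3304 CPM in Tumor 2. In the myoepithelial-like cells of DCIS, 2.13% and 1.73% had a UMI, in the libraries where 73.9% and 35.6% of epithelial-like cells did. The 92 and 119 myoepithelial-like cells of Tumor held less of their own marker list (1502 and 3944 CPM against 7042 to 15120 in the other libraries, with 6 of 8 markers seen) and more of the epithelial list (5984 and 2867 against 706 to 1594), and without integration no Tumor cell fell in this class. Fibroblast-like cells stood at 2.67, 0.897, 9.95 and 2.86 CPM and then 789 and 1155 CPM in Tumor. In Tumor 1 most of these UMIs, 2093 of 2368, came from the 87 cells of the fibroblast-like cluster led by Ccl2 and Ccl7 (1657 CPM), and the clusters led by Saa3 and by Igfbp2 stood at 138 and 203 CPM, while in Tumor 2 the 3 clusters stood at 1370, 1040 and 815 CPM. The Tumor fibroblast-like cells, 240 and 258, kept all 6 fibroblast markers (18870 and 9878 CPM) but also held 593 and 148 CPM of the epithelial list against 15.3 to 93.5 elsewhere, and 2102 and 382 CPM of the myoepithelial list against 31.6 to 93.0.

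Lower levels were seen in other classes of Tumor. Endothelial-like cells held 1, 1, 15 and 2 UMIs in the glands of the earlier states against 67 and 43 UMIs in Tumor (85.4 and 159 CPM). Macrophage-like cells stood at 2.19, 18.8, 16.2 and 2.27 CPM and at 43.5 and 67.7 CPM in Tumor, and T cell-like cells of Tumor at 32.6 and 31.8 CPM. In Tumor 1, pericyte-like or smooth muscle-like cells stood at 66.7 CPM from 9 UMIs and B cell-like cells at 40.9 CPM from 11 UMIs. No Schwann-like cell of Prepuberty or DCIS had a UMI, and the 4 and 4 Schwann-like cells of Tumor were too few for a sum. The Tumor cells in clusters that could not be named, 480 and 556, stood at 1846 and 2313 CPM. Of the T cell-like cells of Tumor 1 and 2, 7.95% and 8.65% held a Cdkn2a UMI at medians of 1867 and 2534 UMIs per cell. With each cell thinned to 3000 UMIs the shares in Tumor 1 and 2 were 90.4% and 86.5% of epithelial-like, 53.4% and 74.9% of fibroblast-like, 12.9% and 31.6% of endothelial-like, 11.5% and 4.69% of macrophage-like and 5.13% and 10.0% of T cell-like cells. Fibroblast-like and endothelial-like cells lay above the T cell-like share in both tumours, and macrophage-like cells lay above it in Tumor 1 and below it in Tumor 2. Few cells were deep enough for these shares, 39 and 40 T cell-like and 70 and 19 endothelial-like cells. The part of free RNA or doublets in them was not tested.

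T antigen UMIs were seen beside Cdkn2a in most of these classes, but not in endothelial-like cells of Tumor 2. They stood at 261 and 58.6 CPM in epithelial-like cells of Tumor 1 and 2, 135 and 83.1 in myoepithelial-like, 86.3 and 56.7 in fibroblast-like, 33.1 and 0 in endothelial-like, and 8.35 and 0.683 in macrophage-like cells. The endothelial-like value of Tumor 1 came from 26 UMIs in 5 of 79 cells, and it was 3.9 CPM without doublet removal and 3.96 CPM without integration, from 3 UMIs each. The fibroblast-like value of Tumor 1 was 78.5 CPM without doublet removal and 18.2 CPM without integration, where 36 UMIs in place of 259 fell in the class. In Tumor 2 the fibroblast-like value was 55.5 and 60.3 CPM under the same settings. Per T antigen UMI, Tumor 1 held 5.00 Cdkn2a UMIs in epithelial-like, 9.14 in fibroblast-like, 14.5 in myoepithelial-like and 5.21 in macrophage-like cells. In Tumor 2 the ratio was 29.3 in epithelial-like, 20.4 in fibroblast-like and 39.8 in myoepithelial-like cells, macrophage-like cells held 99 Cdkn2a UMIs and 1 T antigen UMI, and endothelial-like cells held 43 Cdkn2a UMIs and no T antigen UMI. The ratio of the fibroblast-like class lay above the epithelial-like value in Tumor 1 and below it in Tumor 2.

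**Figure D3:**
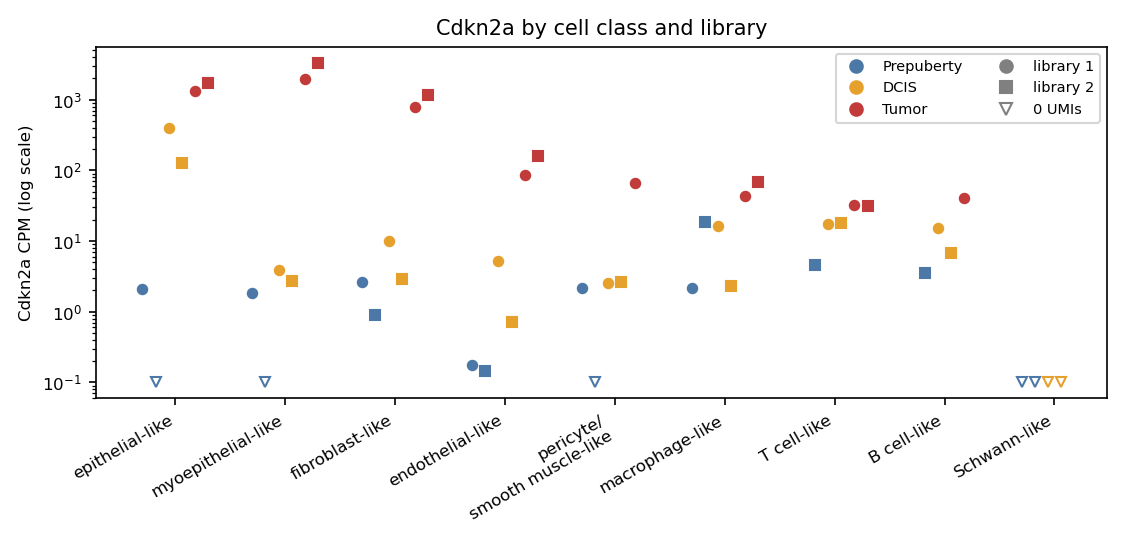
Cdkn2a level (y axis, CPM on a log scale) by cell class (x axis) in each library with at least 10 cells of the class, with open triangles at the bottom for libraries with 0 UMIs. The Tumor points (red) are the highest of each class that has them, and lie between 789 and 3304 CPM in epithelial-like, myoepithelial-like and fibroblast-like cells.

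The other members were compared in the same way in fibroblast-like cells. Ccnd1 stood at 4.03 and 25.5 CPM in Prepuberty, 5.47 and 0.842 in DCIS, and 61.3 and 138 in Tumor, Ccne1 at 5.10 and 4.67, 2.74 and 1.68, and 12.7 and 26.7, and Cdk6 at 6.64 and 9.78, 7.96 and 4.21, and 27.0 and 56.4. Tumor lay above both other states in every library for all 3 genes. At an unadjusted p under 0.05 in edgeR, 19% of all genes were higher in Tumor than in DCIS and 14.6% than in Prepuberty. For Ccne1 and Cdk6 Tumor also lay above both other states within each of the 3 fibroblast-like clusters found in Tumor. The margin was narrow for Ccne1 in the Igfbp2 cluster, at 9.24 CPM from 5 UMIs in Tumor 1 against 8.67 and 8.99 CPM in Prepuberty. For Ccnd1 Tumor lay above them in the Ccl2 and Ccl7 cluster (134 and 207 CPM in Tumor, at most 42.8 elsewhere). In Tumor 1 the other 2 clusters stood at 10.0 and 5.54 CPM for Ccnd1, near the highest values of the earlier states (9.95 and 6.61). Tumor exceeded DCIS by 4.33 ± 1.05 for Ccnd1 (adjusted p = 0.0393), 2.47 ± 0.51 for Ccne1 (adjusted p = 0.0261) and 2.09 ± 0.47 for Cdk6 (adjusted p = 0.0336, log2 scale, SE, edgeR), and Tumor exceeded Prepuberty by 1.85 ± 0.45 for Cdk6 (adjusted p = 0.0492). These are 3 of 9 members in Tumor against DCIS, where 12.2% of 11663 genes passed, and 1 of 9 in Tumor against Prepuberty, where 7.94% did. In DCIS against Prepuberty 0 of 10 passed (0% of all genes in edgeR, and 79 higher and 13 lower in DESeq2), with 1 member, Cdkn2a, at an unadjusted p under 0.05 (10.8% of all genes). Rb1 (3.50, 2.24, 2.24, 3.54, 7.0 and 33.1 CPM) and the remaining members did not pass.

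Some genes of the lists passed the filter only through Tumor in these cells, 3 of 22 E2F targets and 4 of 22 RB pathway core genes, and were left out of the counts. Of the other 19 E2F targets, 15 were higher in Tumor than in DCIS (7.17% of all genes were), among them Mcm5 of the replicative helicase by 5.06 on the log2 scale, and 11 higher than in Prepuberty (5.56% of all genes). Of the other 18 genes of the RB pathway core 5 and 1 were higher. Of the 19 p53 targets that passed the filter without Tumor, 2 were higher and 1 lower than in DCIS. Against Prepuberty 2 of them were higher and 0 lower. The E2F counts of 15 and 11 were 3 and 1 without integration, 5 and 5 without Tumor 2, 0 and 6 without DCIS 1, 0 and 7 without DCIS 2, and 15 and 2 without Prepuberty 1 or 2. With the cells that held a T antigen UMI left out, 1 of the 4 member calls remained, that of Ccne1. All 4 calls were lost without DCIS 1, DCIS 2 or Tumor 2 (adjusted p from 0.0818 to 0.224). Cdk6 against DCIS was also lost without Prepuberty 2 (adjusted p = 0.0558), and Cdk6 against Prepuberty without Prepuberty 1 or 2 (adjusted p = 0.205 and 0.156). Without integration Cdk6 against DCIS was the 1 call that remained (adjusted p from 0.0568 to 0.137 for the others), and without doublet removal Ccne1 was lost (2.12, adjusted p = 0.0547). The epithelial and myoepithelial marker values given above and the T antigen in these cells were higher in both Tumor libraries than in the earlier states. E2F targets were also among the genes higher in Tumor. Between the tumours, the marker lists were higher in Tumor 1, whereas Ccnd1, Ccne1 and Cdk6 were higher in Tumor 2. Apart from leaving out cells with a T antigen UMI, the part of these in the member calls was not tested.

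In endothelial-like cells, of which Tumor held 79 and 33, Ccnd1 stood at 15.0 and 10.5 CPM in Prepuberty, 16.2 and 2.5 in DCIS, and 213 and 345 in Tumor. Ccne1 had 4 and 4 UMIs in Prepuberty, 2 and 1 in DCIS, and 13 and 8 in Tumor. Cdkn2b stood at 5.39 and 3.78, 5.99 and 9.29, and 56.1 and 40.8 CPM. All 3 were higher in both Tumor libraries than in any other. At an unadjusted p under 0.05 in edgeR, 15.7% of all genes were higher in Tumor than in DCIS and 14.3% than in Prepuberty. Tumor exceeded DCIS by 4.43 ± 0.66 for Ccnd1 (adjusted p = 0.00561) and 2.38 ± 0.43 for Cdkn2b (adjusted p = 0.0109), and Prepuberty by 4.33 ± 0.63 (adjusted p = 0.00432) and 3.4 ± 0.43 (adjusted p = 0.00241, SE, edgeR). Neither the Prepuberty nor the DCIS libraries reached, for Ccne1, the floor of 3.55 CPM that the filter set in this class, and it was given no test.

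The inhibitor and kinase moved the other way in the same cells. Cdkn1a, which was high in endothelial-like cells of the gland, stood at 687 and 1115 CPM in Prepuberty, 738 and 665 in DCIS, and 283 and 482 in Tumor. Both Tumor libraries lay below all others, and Prepuberty and DCIS overlapped. It was lower in Tumor by 1.30 ± 0.33 against DCIS (adjusted p = 0.0342) and by 1.32 ± 0.33 against Prepuberty (adjusted p = 0.0338, log2 scale, SE, edgeR). Cdk6 stood at 35.0 and 33.6, 40.2 and 32.5, and 17.9 and 22.2 CPM, the last from 14 and 6 UMIs, and was lower than in DCIS by 1.27 ± 0.35 (adjusted p = 0.0440). The class differed in makeup, since the cluster led by Ackr1 and Selp held 256 and 171 cells of DCIS but 8 and 4 of Tumor. Within the other cluster, led by Gpihbp1 and Cldn5, Cdk6 overlapped (52.8 and 22.7 CPM in DCIS, 19.2 and 22.96 in Tumor) and Cdkn1a did not (755 and 786 against 297 and 498 CPM). Mdm2 lay between 35.9 and 73.8 CPM in 5 libraries and at 408 CPM in Tumor 2, and did not pass. The Tumor 2 value came from 110 UMIs, held by 24.2% of its 33 cells. Tumor 2 also held 508 CPM of the macrophage list in these cells against 40.1 to 104 elsewhere, and Tumor 1 held 210 CPM of the epithelial list against 29.6 to 72.9, and their part in these results was not tested.

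With Cdkn2a and Ccne1 left out, 4 of 8 members thus passed in Tumor against DCIS and 3 of 8 in Tumor against Prepuberty, where 13.9% and 12.2% of 10637 genes passed. In DCIS against Prepuberty 0 of these 8 passed (0% of all genes in edgeR, and 44 higher and 14 lower in DESeq2), and 1, Cdkn2b, had an unadjusted p under 0.05 (11.3% of all genes). The call of Cdkn2b against DCIS was lost without DCIS 1 (adjusted p = 0.0612) or Tumor 1 (adjusted p = 0.11). That of Cdkn1a against DCIS was lost without DCIS 1, DCIS 2 or Tumor 1 (adjusted p from 0.0861 to 0.177), and against Prepuberty without DCIS 1, DCIS 2, Prepuberty 2 or Tumor 1 (adjusted p from 0.0593 to 0.175). That of Cdk6 was lost without any of the 6 libraries (adjusted p from 0.0608 to 0.192). With a mitochondrial limit of 5% both Cdkn1a calls and that of Cdk6 were lost (adjusted p from 0.0635 to 0.0709). Of the 22 E2F targets 5 passed the filter only through Tumor, and of the other 17, 12 were higher in Tumor than in DCIS and 14 higher than in Prepuberty, as were 7.35% and 7.16% of all genes. With a library left out these counts ranged from 3 to 11 and from 5 to 13. Of the p53 targets 4 were lower and 1 was higher in each comparison, with 6.52% and 4.99% of all genes lower. Those with the largest falls were 3 receptors of the TNF receptor family, Eda2r (−4.31 and −3.77), Tnfrsf10b (−2.71 and −2.07) and Fas (−2.54 and −2.27). With a library left out 2 to 4 and 1 to 3 were lower. Of the 12 dissociation stress genes 4 were lower in Tumor than in DCIS, and 3 were lower and 1 higher than in Prepuberty. Hspa1b stood at −5.89 and −4.82 and Hspb1 at −5.42 and −4.15, and the part of this list in the results of the p53 targets and of Cdkn1a was not tested.

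Macrophage-like cells differed in 1 member. Cdkn2b stood at 13.1 and 14.6 CPM in Prepuberty, 11.7 and 12.5 in DCIS, and 3.96 and 4.10 in Tumor, from 6, 7, 18, 11, 9 and 6 UMIs. The Tumor libraries were the lowest, and Tumor lay below DCIS by 2.11 ± 0.52 on the log2 scale (SE, adjusted p = 0.0425, edgeR), where 6.69% of 7607 genes passed. Both Tumor libraries were under the filter's floor of 8.54 CPM in this class and the other 4 above it. In DCIS against Prepuberty (0.131% of all genes) and Tumor against Prepuberty (5.94%) no member passed in edgeR or DESeq2, and 1 of 9 members and, with Cdkn2a left out, 4 of 8 had an unadjusted p under 0.05, as did 11% and 21.5% of all genes. DESeq2 did not call Cdkn2b against DCIS (adjusted p = 0.129), nor did edgeR without doublet removal (−1.45, adjusted p = 0.0996). Of the 12 p53 targets that passed the filter without Tumor, 2 were lower in Tumor than in DCIS. Against Prepuberty 1 of them was higher and 3 were lower. Ccne1 was too low to be tested in this class. The other members did not pass, among them Mdm2, which was at 267 CPM in Prepuberty 1 and between 54.0 and 100 CPM in the rest. The call was lost without any library but Tumor 1 (adjusted p from 0.0501 to 0.372), and without Tumor 1 the count of calls in this class was 5.

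Epithelial-like cells were then divided by T antigen. A cell was counted as with T antigen if it held at least 1 T antigen UMI, and 5 libraries had at least 10 cells of both kinds. With T antigen were 110 cells of Prepuberty 1, 364 of DCIS 1, 171 of DCIS 2, 1968 of Tumor 1 and 725 of Tumor 2, while Prepuberty 2 had 3 and did not enter. A cell without a T antigen UMI may still make T antigen, since cells with one held more UMIs, at medians of 27790, 16320, 23790, 15590 and 22070 against 10100, 8299, 10090, 8514 and 12400. The 2 sums of a library were compared with the library as a block.

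Cdkn1a was lower in cells with T antigen in all 5 libraries. It stood at 84.0 CPM with and 140.5 CPM without T antigen in Prepuberty 1, 116 and 125 in DCIS 1, 103 and 153 in DCIS 2, 314 and 399.0 in Tumor 1, and 193 and 214 in Tumor 2. The difference was −0.43 ± 0.10 on the log2 scale (SE, adjusted p = 0.0417, edgeR). Mdm2 stood at 30.1 and 38.8, 36.2 and 34.7, 41.2 and 42.8, 33.7 and 49.0, and 47.6 and 73.4 CPM in the same order, lower with T antigen in 4 of the 5 libraries, with a difference of −0.39 ± 0.09 (adjusted p = 0.0453). Both are known p53 target genes. These 2 of 10 members were the only ones called by this test, where 2.02% of 13152 genes passed, 0.411% as higher and 1.61% as lower.

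Cdkn2a stood at 1.18 and 2.46 CPM with and without T antigen in Prepuberty 1, 448 and 366 in DCIS 1, 172 and 110 in DCIS 2, 1318 and 1242 in Tumor 1, and 1780 and 1586 in Tumor 2. It was higher with T antigen in the 4 DCIS and Tumor libraries, but the sums without T antigen in those libraries were all at 110 CPM or more against 2.46 CPM in Prepuberty 1, and the difference did not pass (0.21 ± 0.09, adjusted p = 0.276). The other differences were 0.24 ± 0.08 for Cdkn2b (adjusted p = 0.157), 0.34 ± 0.09 for Cdk6 (adjusted p = 0.0892), 0.22 ± 0.13 for Rb1 (adjusted p = 0.438), −0.09 ± 0.07 for Trp53 (adjusted p = 0.548), 0.03 ± 0.06 for Cdk4, −0.04 ± 0.14 for Ccne1 and −0.05 ± 0.18 for Ccnd1. Cdk6 was higher with T antigen in all 5 libraries. In simulated counts the test recovered 54% of genes changed by 0.5 on the log2 scale and 86% of those changed by 1, so differences under 0.5 would often be missed.

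**Figure D4:**
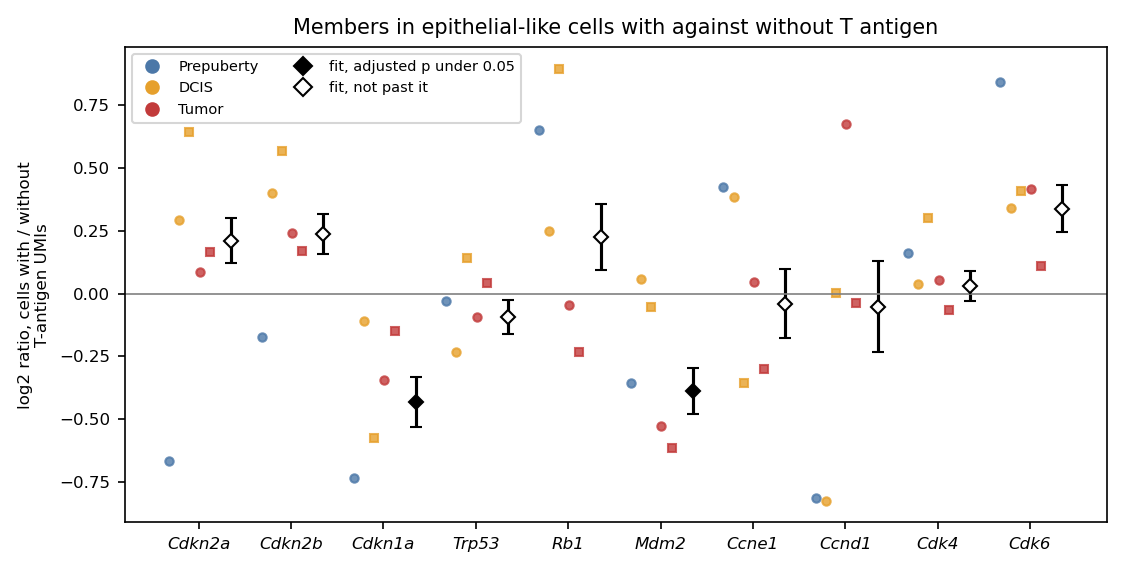
Log2 ratio of the CPM (1 added to both) of cells with to cells without T antigen UMIs (y axis) for the 10 genes (x axis) in epithelial-like cells, as 1 point per library (circles for library 1, squares for library 2), beside the fitted log2 fold change ± SE (diamonds). Filled diamonds, for Cdkn1a and Mdm2, passed the adjusted threshold, and the Prepuberty 1 point of Cdkn2a rests on 4 and 24 UMIs.

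By the number of T antigen UMIs, Mdm2 in Tumor 1 stood at 49.0 CPM in cells with 0, 36.5 with 1, 35.9 with 2 to 4 and 31.5 with 5 or more, and in Tumor 2 at 73.4, 53.2, 48.3 and 28.1 CPM. The order was the same in both tumours. No such order was seen in DCIS 1 (34.7, 43.0 and 28.6 CPM with 0, 1 and 2 to 4), DCIS 2 (42.8, 39.2 and 46.5) or Prepuberty 1 (38.8, 24.3 and 39.6). Cdkn1a was lower with 1 UMI than with 0 in Tumor 1 (310 and 399.0 CPM) and near that level beyond it (311 and 318), and in Tumor 2 it stood at 214, 193, 205 and 149 CPM. Cdkn2a was higher in each further bin in Tumor 2 (1586, 1707, 1809 and 1890 CPM), DCIS 1 (366, 436 and 467 for 0, 1 and 2 to 4) and DCIS 2 (110, 128 and 247) and not in Tumor 1 (1242, 1352, 1317 and 1308). These levels are descriptions, since the bins differ in depth.

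The 2 kinds of cell also differed in makeup and depth. The Prlr and Cited1 cluster made up 16.4% of the cells with and 46.4% of those without T antigen in Prepuberty 1, 4.12% and 15.4% in DCIS 1, 11.7% and 42.4% in DCIS 2, 0.508% and 0.670% in Tumor 1, and 0.552% and 7.64% in Tumor 2. The cycling cluster made up a larger share of the cells with T antigen in all 5 libraries (31.8% to 55.2% against 12.7% to 41.9%). With cells matched on cluster and UMI count, Cdkn1a kept its difference (−0.42, adjusted p = 0.0130) and Mdm2 kept its size but not its call (−0.43, adjusted p = 0.130). With each cell thinned to 3000 UMIs, before T antigen was called, Cdkn1a stood at −0.27 (adjusted p = 0.735) and Mdm2 at −0.13 (adjusted p = 0.992). Cdkn1a lost its call without Prepuberty 1, DCIS 1 or DCIS 2 (adjusted p from 0.0614 to 0.160), and Mdm2 without Prepuberty 1, DCIS 2, Tumor 1 or Tumor 2 (adjusted p from 0.10 to 0.181). Without doublet removal both calls were lost, with Cdkn1a at −0.43 (adjusted p = 0.0551) and Mdm2 at −0.24 (adjusted p = 0.261). DESeq2 called Cdkn1a (−0.43, adjusted p = 0.00409) and not Mdm2 (−0.37, adjusted p = 0.0791), and Mdm2 was not called without integration either (−0.41, adjusted p = 0.0829).

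Of the 20 p53 target genes on the list, which does not hold Cdkn1a or Mdm2, 5 were lower in cells with T antigen, as were 1.61% of all genes, and none was higher. At an unadjusted p under 0.05, 11 were lower (9.39% of all genes were), and the median was −0.27 against −0.01 over all genes. The 3 with the largest change were Trp53inp1 (−0.64 ± 0.11, adjusted p = 0.00935), Plk2, a polo-like kinase (−0.52 ± 0.07, adjusted p = 0.00427), and Ccng1, cyclin G1 (−0.50 ± 0.09, adjusted p = 0.0175). The count of 5 was 0 with cells matched on cluster and UMI count (median −0.19), 1 with thinning (median −0.24), and 2 to 6 with a library left out. Of 22 E2F targets only Top2a, topoisomerase 2A, passed (0.35, adjusted p = 0.0306), 6 had an unadjusted p under 0.05, all higher (6.08% of all genes were), and the median was 0.04. Of the RB pathway core only E2f2, an E2F activator, passed (0.58, adjusted p = 0.0135), with a median of 0.11. Neither Top2a nor E2f2 passed with matched or thinned cells or without DCIS 2, and Top2a did not without Prepuberty 1 or DCIS 1. None of 13 p53 regulators passed, and the smallest p were those of Rpl5 (−0.12, adjusted p = 0.352) and Ppm1d (−0.20, adjusted p = 0.510). Of the 12 dissociation stress genes 3 were lower, Atf3 (−0.73), Hspb1 (−0.42) and Ier3 (−0.36), with a median of −0.21, and their part in the p53 result was not tested.

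**Figure D5:**
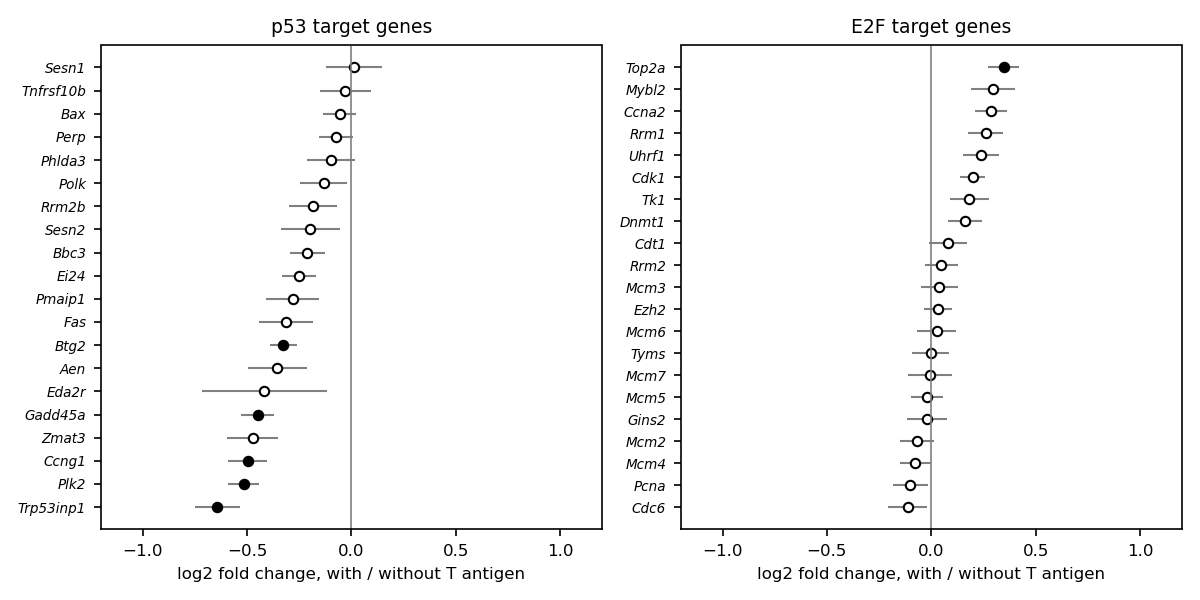
Log2 fold change ± SE of cells with against cells without T antigen (x axis) for the 20 p53 target genes (left) and 21 of the 22 E2F target genes (right) in epithelial-like cells of 5 libraries, with filled points for genes past the adjusted threshold. On the left 19 of 20 genes lie below 0 and 5 are filled, and on the right the genes lie on both sides of 0 and Top2a is filled.

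Fitted by state, the effect of T antigen did not differ between Tumor and DCIS for any member, where 0.241% of 13683 genes differed, and DESeq2 called no member either. At an unadjusted p under 0.05 were 3 members and 10.1% of all genes. The members were Mdm2 (−0.46 ± 0.14, adjusted p = 0.281), Ccnd1 (0.87 ± 0.30, adjusted p = 0.353) and Rb1 (−0.62 ± 0.21, adjusted p = 0.353). The Mdm2 effect was −0.58 ± 0.09 in Tumor (adjusted p = 0.0183), where 0.614% of all genes passed, and −0.11 ± 0.11 in DCIS (adjusted p = 0.678), and the call in Tumor was lost without Tumor 2 (−0.53, adjusted p = 0.108), without doublet removal (−0.27, adjusted p = 0.498), with thinning (−0.10, adjusted p = 1) and with DESeq2 (−0.59, adjusted p = 0.285). Ccnd1 was higher with T antigen in Tumor 1, at 141 against 88.2 CPM, and similar in Tumor 2, at 123 and 126 CPM, and without Tumor 2 its difference between the states passed (1.2, adjusted p = 0.00739). Rb1 passed without DCIS 1 (−0.92, adjusted p = 0.0492). Of the p53 targets 5 were lower with T antigen in DCIS (2.23% of all genes passed, 1.71% as lower), among them Trp53inp1 (−0.78), Aen (−0.71) and Zmat3 (−0.69), though only 1 with matched or thinned cells or without DCIS 2 and 2 with DESeq2, and none passed in Tumor, with 6 lower at an unadjusted p under 0.05 (5.88% of all genes), and none differed between the states.

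The same division was made of the fibroblast-like cells of Tumor, 79 with and 161 without T antigen in Tumor 1 and 122 and 136 in Tumor 2. Cdkn2a stood at 1112 CPM with and 568.5 CPM without T antigen in Tumor 1 and at 1293 and 968 CPM in Tumor 2, higher with T antigen in both. The difference was 0.60 ± 0.24 on the log2 scale (adjusted p = 0.435, edgeR), and no member passed with edgeR or DESeq2 (1 member and 8.19% of all genes at an unadjusted p under 0.05), where 1.85% of 10149 genes did. Cells with T antigen also held more of the epithelial list (971 against 335 CPM in Tumor 1 and 170 against 118 in Tumor 2), and with cells matched on cluster and UMI count the difference of Cdkn2a was 0.03 (adjusted p = 0.999). The fibroblast-like cells without a T antigen UMI in Prepuberty and DCIS stood at 0.898 to 9.51 CPM, below both Tumor sums without it.

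Across 48 sums of a named class in a library, the genes whose log2(CPM + 1) was most like that of Cdkn2a were Mns1 (Pearson r = 0.843), Dscc1 (0.840), the T antigen itself (0.838), Tnnt2 (0.832) and Gins2 (0.831), of 13223 genes. For Cdkn1a they were Tmbim1 (0.729), Clic4 (0.716), Ssfa2 (0.708), Arl8a (0.705) and Stx12 (0.703). The sums share libraries and classes, so that these values are a description.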

How the data were processed

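Single cells of mammary tissue were captured with a 10x 3′ kit, and the authors deposited 1 matrix of UMI counts per library, which are not normalized and, per the file headers, were made with Cell Ranger 3.0.2. The submitters' notes name the build mm10, and the T antigen, which per the study's methods was supplied to Cell Ranger as a vector sequence, is a feature of the matrices. The labels give 1 kit and 1 digestion for all libraries and the study's methods others for Tumor.

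Cells with at least 200 genes and under 10% mitochondrial UMIs were kept, and of 23835 barcodes 546 had too few genes, 1045 too many mitochondrial UMIs and 707 were removed as doublets by Scrublet score (0.8% per 1000 cells, since its own threshold marked only 64). Cells were clustered with Seurat 5.3.0 after integration (2000 variable genes, 20 dimensions, resolution 0.8) into 23 clusters, and a cluster was named from at least 3 markers. UMI sums of at least 10 cells per class and library were tested with edgeR 4.0.16 (quasi-likelihood, TMM, filterByExpr, two-sided, Benjamini-Hochberg over all genes tested). The standard error of a log2 fold change was the fold change over the square root of F. State comparisons used all libraries of a class in 1 fit with state as the only term. T antigen comparisons used 2 sums per library with the library as a block and left the T antigen itself out. Poisson intervals (95%) cover counting error only. R 4.3.3, Python 3.11.15 and scanpy 1.11.5 were used.

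The members and gene lists were chosen with earlier results of these data known. All 10 members were named, and from each list up to 3 genes per direction with the largest change among those past the threshold, or else the 2 with the smallest p, and for Cdkn2a and Cdkn1a the 5 genes with the highest correlation. The values of 1 gene so chosen are not reported here. Which members' fold changes are printed was decided after their values were seen, as was leaving out of the tests and list counts the genes that fewer than 2 libraries outside Tumor carried past the filter. Alternatives were DESeq2 1.42.0, its size factors in edgeR, no filter on low counts, a mitochondrial limit of 5%, no doublet removal, no integration, other ways to call T antigen, other blocks and leaving out each library. The fits were tested on simulated counts with 200 changed genes. For the T antigen comparison, 11 of 151 calls were wrong, and for Tumor against DCIS 6 of 83.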

Additional observations from a re-analysis of the deposited data

Results flagged for a closer look

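Cdkn2b moved in opposite directions in 2 classes between Tumor and DCIS, at −2.11 on the log2 scale in macrophage-like cells and 2.38 in endothelial-like cells. In each class both Tumor libraries lay on the same side of both DCIS libraries. The difference between the classes was not tested. The Tumor values rest on 9 and 6 UMIs in macrophage-like cells and 44 and 11 UMIs in endothelial-like cells.

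Cdk6 likewise stood at 2.09 in fibroblast-like cells and −1.27 in endothelial-like cells for Tumor against DCIS, with no overlap of the libraries within either class. Within the endothelial-like cluster that held most of the Tumor cells, DCIS (52.8 and 22.7 CPM) and Tumor (19.2 and 22.96 CPM) did overlap, and the difference between classes was not tested. The endothelial-like Tumor values rest on 14 and 6 UMIs.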

How the results depend on the processing

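In epithelial-like cells the comparison by T antigen called 2 of the 10 genes. It called 1 with DESeq2, with DESeq2's size factors in edgeR or with cells matched on cluster and UMI count, 0 without doublet removal, with each cell thinned to 3000 UMIs or with no library block, and 0 to 1 with a library left out. The 0 members whose effect differed between Tumor and DCIS became 1 without a filter on low counts (Ccnd1) and 0 to 1 with a library left out. In fibroblast-like cells of Tumor no member was called under any alternative run, and leaving out a library was not run there because no residual degrees of freedom remain. The 3 calls between states in epithelial-like cells became 7 without a filter or with DESeq2, 0 without integration and 0 to 4 with a library left out. The 4 calls in fibroblast-like cells became 10 without a filter, 1 without integration, 1 with only cells that held no T antigen UMI and 0 to 6 with a library left out. The 1 call in macrophage-like cells became 4 without a filter, 0 with DESeq2 or without doublet removal, and 0 to 5 with a library left out, and the 7 in endothelial-like cells, with Cdkn2a and Ccne1 left out, became 4 with a mitochondrial limit of 5% and 3 to 6 with a library left out. Calls over all genes rose without a filter too. In fibroblast-like cells they went from 1428 to 2874 against DCIS and from 926 to 2364 against Prepuberty. In macrophage-like cells they went from 509 to 1176 and from 452 to 1034. Without integration the epithelial-like class of Tumor 2 held 320 cells in place of 1275. The causes of these changes were not tested.

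Differences between cells with and without T antigen that had not passed changed sign in several genes. With thinning, Trp53 stood at 0.12, Rb1 at −0.26, Ccnd1 at 0.012, Cdk4 at −0.050 and the Mdm2 difference between Tumor and DCIS at 0.12. With no library block Ccne1 stood at 0.00018 and Ccnd1 at 0.17, and without integration Ccne1 stood at 0.089. With a library left out Ccne1 ranged from −0.14 to 0.11 and Ccnd1 from −0.37 to 0.095. The Mdm2 effect in Tumor kept its call with matched cells (−0.75, adjusted p = 0.000699, edgeR). Over single genes and all alternatives, 495 values kept their direction and side of the threshold, 88 lost a call, 15 gained one and 11 changed sign, and 10 values with no test moved by more than the spread.

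With the replicate number as a block, the count of member calls between states was 2 in epithelial-like, 4 in fibroblast-like, 1 in macrophage-like and 7 in endothelial-like cells, and the call that changed was that of Ccnd1 in epithelial-like cells (3.23, adjusted p = 0.0667). Over 13341 genes, deviations from the state means correlated between same-numbered libraries at 0.0986 (Prepuberty and DCIS), −0.0505 (DCIS and Tumor) and −0.0828 (Prepuberty and Tumor), so the numbers do not pair the samples.

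Counts over all genes moved as well. In epithelial-like cells Tumor against DCIS gave 171 genes, 0 without integration or with the replicate block and 2028 without a filter. Tumor against Prepuberty gave 850 genes, 0 without integration and 2750 without a filter. Both counts also moved with a library left out. The comparison by T antigen gave 266 genes, 729 without a filter, 0 with no library block and 64 to 368 with a library left out, and by state 84 in Tumor (29 with thinning, 409 without a filter) and 305 in DCIS (50 with matched cells, 845 without a filter). With a library left out, fibroblast-like cells gave 32 to 1834 genes in place of 1428 for Tumor against DCIS, macrophage-like cells 33 to 910 in place of 509 and endothelial-like cells 481 to 1192 in place of 1476.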
